A study of Mus musculus with 17 samples.

Results

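The 10 genes described here are Egr1, Egr2, Ier2, Ier3, Zfp36, Cyr61, Ctgf, Klf6, Nr4a1 and Ppp1r15a, immediate early genes other than those of the AP-1 family. They were taken by name, and their loops were those with an anchor within 5 kb of one of their transcription start sites (TSS) on the mouse build mm9. This gave 10 of 22367 protein-coding genes and 1004 of 1211657 loops. The loops come from H3K27ac HiChIP, in which chromatin is cut with MboI and ligated in place, and fragment pairs carrying acetylated lysine 27 of histone H3, a mark of active promoters and enhancers, are pulled down and sequenced. A loop is a pair of anchors joined by at least 1 read pair, and its count is its number of read pairs.

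Both groups began as mouse embryonic stem cells that formed embryoid bodies in hanging drops and then received 0.5 µM retinoic acid for 4 days, and no untreated cells were part of the comparison. The bulk group is 12 libraries of whole dissociated embryoid bodies, and the cluster2 group is 5 libraries that, by the study's methods, hold cells sorted as positive for both EpCAM and CD38. The labels give no separate culture or sort for each library, so p-values measure the spread between libraries, which may be technical. Both were dissociated enzymatically before fixation, but the sorted cells were then also held on ice, stained with antibodies and passed through a cytometer, so the sorted cell type and this handling cannot be told apart. In bulk libraries, fewer cells of a type and less signal per cell cannot be told apart either.

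Immediate early genes are switched on within minutes of a growth factor, stress or mechanical signal without new protein synthesis, mostly through serum response factor at CArG boxes, CREB at cAMP response elements and, for the matricellular genes, YAP with TEAD factors. Their products are transcription factors (Egr1, Egr2, Klf6, Nr4a1), brakes on the response (Zfp36, Ppp1r15a), small nuclear and stress-linked proteins (Ier2, Ier3) and secreted matrix-associated signals (Cyr61, Ctgf). In differentiating cultures they are known both as relays of growth factor signals and as genes that cell dissociation induces.

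The libraries held 65148 to 241068 loop read pairs in bulk (median 135054) and 50508 to 118179 in cluster2 (median 85966). The deposited lists show only anchors that carry a loop, so an anchor not called cannot be told from one called without read pairs. After overlapping anchors were joined, far fewer were used in cluster2. Bulk loops used 216073 and cluster2 loops 15082, with 15074 used by both. Loops on these shared anchors made up 11.8% ± 2.53 (SD, n = 12) of a bulk library and 99.99% ± 0.00522 (SD, n = 5) of a cluster2 library by read pairs. Levels are therefore given over all anchors and over shared anchors alone, in CPM corrected by TMM. CPM is the usual scaling of read pairs to the library's total of loop read pairs. On shared anchors the total is that of loops on those anchors alone, so CPM of the different countings are not on the same scale. As a description of the cluster2 group, 8 of 14 extraembryonic endoderm markers were higher and 1 was lower in it over all anchors (Cldn6 log2 difference 3.49, Krt18 2.96). Of all genes tested, 20.6% were higher and 42.8% lower. Summed marker levels were 2468 to 2995 CPM in cluster2 against 492 to 1119 in bulk. The lower marker was Dab2 (−1.48, edgeR adjusted p = 0.00632), and Gata6 (0.02), Lama1 (−0.41) and Sox17 (−0.57) were not called. On shared anchors 11 of the 14 were higher and 0 lower, against 25.7% and 10% of all genes. Many of these reached the minimum of 20 read pairs through cluster2 alone, with bulk read pairs of 0 (Sox17), 5 (Lamb1), 6 (Cd38), 8 (Lama1), 12 (Col4a1 and Col4a2 each), 16 (Gata4) and 17 (Krt8). Col4a1 and Col4a2 held equal cluster2 counts (256) in both countings, so they are not separate markers, though both enter the sums. The study itself ties the cluster2 subpopulation to mesodermal and endoderm lineages. The sorting markers themselves were not called over all anchors (Epcam 1.05, SE 0.61, adjusted p = 0.107; Cd38 0.65, SE 0.46, adjusted p = 0.195), and on shared anchors Cd38 was higher (1.86, adjusted p = 0.00456) and Epcam was not called (0.35, adjusted p = 0.654). All 9 tested of 11 neural markers were lower over all anchors, against 42.8% of all genes (Pou3f2 log2 difference −5.15, Pax6 −3.17). Their summed levels were 110 to 181 CPM against 1041 to 1839. Some neural markers, such as Pou3f2 (8 cluster2 read pairs), reached the minimum of 20 through bulk alone, so their count is a description too. Of 6 pluripotency markers 3 were tested, 2 higher and 1 lower, with sums of 110 to 239 CPM against 114 to 543, and 8 fibroblast markers summed to 20.5 to 58.6 against 20.7 to 231 CPM. The part of these other cell types in the results below was not tested.

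The DNA at 4 member promoters and at 3 partner anchors is shown because the loops described below join these places or contrast with them. The promoters are RefSeq windows of 300 bases, 250 before and 50 after the start site (GRCm38.p6), each found once in mm9 within an anchor of the gene, and are written 5′ to 3′ on the gene's strand. Capitals mark matches, on either strand, to the CArG box, to the cAMP response element (TGACGTCA), to the AP-1 (TGACTCA) and TEAD (GGAATG) motifs and to the EGR motif (GCGGGGGCG).
Klf6 promoter, chr13:5860485-5860784, plus strand: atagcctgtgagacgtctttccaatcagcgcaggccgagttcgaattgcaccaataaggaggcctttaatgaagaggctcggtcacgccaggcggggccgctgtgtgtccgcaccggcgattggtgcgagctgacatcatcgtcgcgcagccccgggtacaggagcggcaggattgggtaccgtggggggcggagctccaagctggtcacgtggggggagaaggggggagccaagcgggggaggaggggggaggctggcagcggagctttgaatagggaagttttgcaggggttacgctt
Cyr61 (RefSeq Ccn1) promoter, chr3:145312900-145313199, minus strand: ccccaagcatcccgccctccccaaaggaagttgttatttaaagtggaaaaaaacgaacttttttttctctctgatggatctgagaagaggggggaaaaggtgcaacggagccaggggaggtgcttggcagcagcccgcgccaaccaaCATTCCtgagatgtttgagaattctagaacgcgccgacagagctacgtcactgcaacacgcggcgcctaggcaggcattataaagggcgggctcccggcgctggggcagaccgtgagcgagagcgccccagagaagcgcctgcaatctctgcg
Ppp1r15a promoter, chr7:52781589-52781888, minus strand: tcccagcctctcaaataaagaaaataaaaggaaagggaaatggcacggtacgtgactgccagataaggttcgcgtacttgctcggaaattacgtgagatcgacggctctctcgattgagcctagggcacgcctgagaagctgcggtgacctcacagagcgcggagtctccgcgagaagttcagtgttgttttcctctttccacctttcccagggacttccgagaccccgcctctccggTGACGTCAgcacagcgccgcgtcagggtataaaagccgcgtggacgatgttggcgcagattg
Zfp36 promoter, chr7:29164198-29164497, minus strand: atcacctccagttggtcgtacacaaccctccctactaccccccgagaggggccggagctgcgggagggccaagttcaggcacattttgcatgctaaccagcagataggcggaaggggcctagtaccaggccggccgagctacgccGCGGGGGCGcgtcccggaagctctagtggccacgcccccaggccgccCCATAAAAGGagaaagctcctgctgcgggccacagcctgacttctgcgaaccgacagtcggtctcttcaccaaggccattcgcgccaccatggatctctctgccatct
Partner centres are the middle 300 bases of the anchor on mm9, plus strand.
Klf6 partner 57.2 kb upstream, chr13:5803347-5803646: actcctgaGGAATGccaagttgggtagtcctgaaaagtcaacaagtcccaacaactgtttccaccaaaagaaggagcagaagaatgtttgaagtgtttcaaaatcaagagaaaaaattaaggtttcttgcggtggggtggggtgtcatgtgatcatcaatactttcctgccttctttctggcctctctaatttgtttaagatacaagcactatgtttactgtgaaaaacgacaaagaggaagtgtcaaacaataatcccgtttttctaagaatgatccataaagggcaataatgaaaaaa
Klf6 partner 19.6 kb upstream, chr13:5840979-5841278: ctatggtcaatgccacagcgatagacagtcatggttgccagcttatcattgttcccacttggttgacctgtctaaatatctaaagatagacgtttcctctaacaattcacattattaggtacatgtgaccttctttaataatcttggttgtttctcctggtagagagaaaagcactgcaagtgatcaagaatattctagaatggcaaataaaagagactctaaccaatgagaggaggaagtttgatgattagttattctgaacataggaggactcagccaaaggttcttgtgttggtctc
Ctgf partner 149 kb upstream, chr10:24165779-24166078: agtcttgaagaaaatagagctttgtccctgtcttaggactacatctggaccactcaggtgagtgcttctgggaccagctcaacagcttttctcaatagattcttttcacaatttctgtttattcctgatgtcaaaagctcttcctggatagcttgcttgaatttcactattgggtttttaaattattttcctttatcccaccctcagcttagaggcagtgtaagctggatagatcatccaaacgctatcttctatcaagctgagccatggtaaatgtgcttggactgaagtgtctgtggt

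The Klf6 window held none of the 5 motifs, the Cyr61 window 1 TEAD match, the Ppp1r15a window 1 cAMP response element, and the Zfp36 window 1 CArG box and 1 EGR match. Of 27025 RefSeq promoter windows, 1.57% held a CArG box, 1.88% a cAMP response element, 5.17% an AP-1 motif, 14.6% a TEAD motif and 2.92% an EGR motif. The Klf6 partner at 57.2 kb held 1 TEAD match in its centre, and the centres of the other 2 partners held no match. Among the centres of all 15074 shared anchors, 13.6% held a TEAD motif and 3.94% an AP-1 motif. Over their whole length, the Klf6 partner at 57.2 kb (4157 bases) held 3 AP-1 and 5 TEAD matches, the one at 19.6 kb (10184 bases) 8 AP-1 matches, 8 TEAD matches and 1 CArG box, and the Ctgf partner (4053 bases) 1 AP-1 match, 5 TEAD matches and 1 CArG box. A match is a run of letters, not a bound site. Of the members, 7 were matched by symbol to RefSeq promoter windows used here. Windows of Ier2, Ctgf and Egr1 are not shown, and those of Egr2, Nr4a1 and Ier3 were matched but are not printed. The Nr4a1 window held 1 TEAD and 1 EGR match and the Ier3 window none. Egr2 windows 2 to 5, of which 3 to 5 overlap, each held 1 CArG box. Window 2 also held 1 TEAD match, and window 1 held no match.

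The first comparison asks whether the loops of these genes carried more of the H3K27ac-linked contacts in the sorted cells than in the mixture. Over all anchors 6 of the 10 genes were higher in cluster2 (Ppp1r15a, Ctgf, Ier3, Ier2, Klf6 and Zfp36), Cyr61 was lower, and Egr1, Egr2 and Nr4a1 did not pass the test (edgeR quasi-likelihood test, adjusted p under 0.05 over 14115 genes). Of all genes tested, 20.6% were called higher and 42.8% lower. The median log2 difference, cluster2 over bulk, was 0.65 over the 10 genes and −0.52 over all genes. Without TMM, with library size alone as the scale, the median of all genes shifts by 1.73, to 1.21, and the 10 genes lie between 0.88 (Egr2) and 3.94 (Ppp1r15a), so that Cyr61 turns from lower to higher (1.16, adjusted p = 2.15e-05) and Egr2 changes sign. The study's methods drop replicates with fewer than 500 loops of over 5 reads, and the study counts 12 bulk replicates. By the loop counts used here 1 bulk library reaches 500 (replicate 2, with 687), so the study's measure may be another one. With replicate 2 as the only bulk library, assumed to vary like the cluster2 libraries, Ppp1r15a and Ctgf stayed positive and Cyr61 negative. Ier3 was then at 0.65, Klf6 at 0.58, Zfp36 at 0.17 and Ier2 at −0.12. On shared anchors, where the scaling moves the median of all genes by only 0.04, Ppp1r15a, Klf6, Ctgf and Ier3 were higher, none was lower and 6 were not called, against 25.7% of 9845 genes higher and 10% lower. No member was lower there at an unadjusted p under 0.05 in edgeR, nor called lower by DESeq2. There the median of the 10 genes, 0.40, lay beside that of all genes, 0.42.

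**Figure D1:**
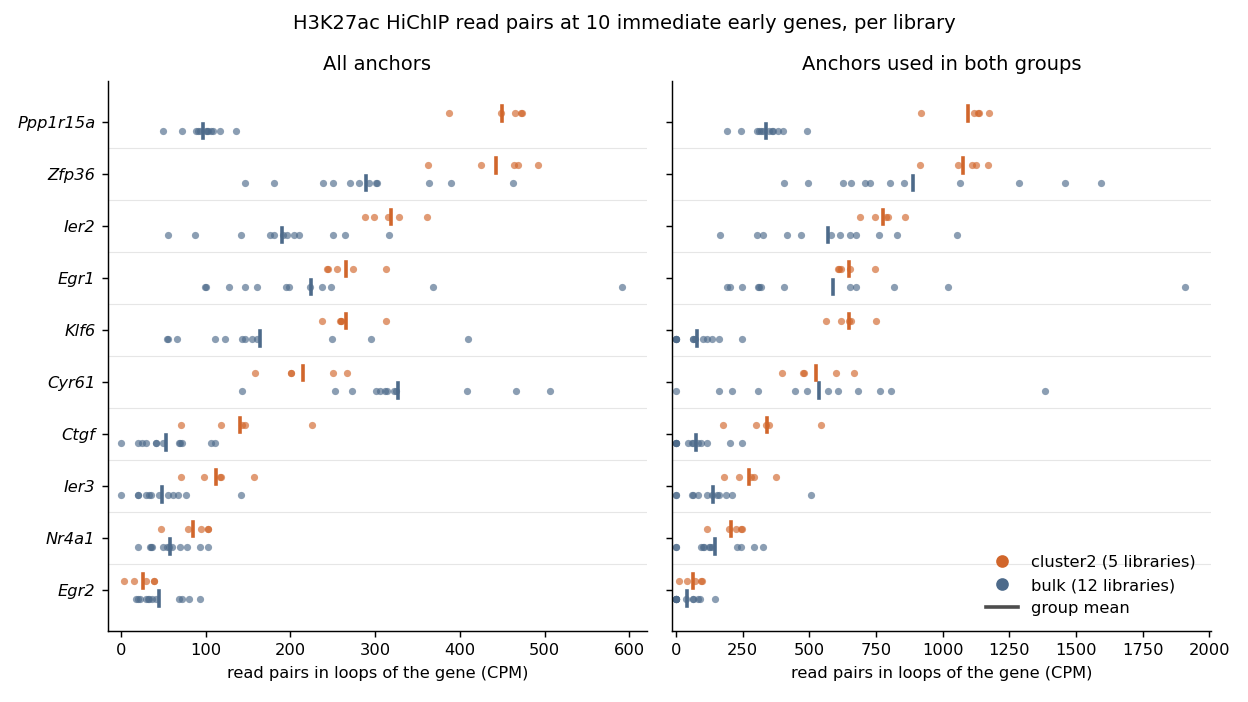
Loop read pairs (TMM-scaled CPM) of each of the 10 genes in every library, over all anchors and over shared anchors; points are libraries (12 bulk, 5 cluster2) and bars group means. Ppp1r15a in cluster2, 387 to 474 CPM over all anchors, lies above every bulk library, while Egr1 and Egr2 overlap between the groups; with library size alone as the scale, Cyr61 and Egr2 would lie higher in cluster2.

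**Figure D2:**
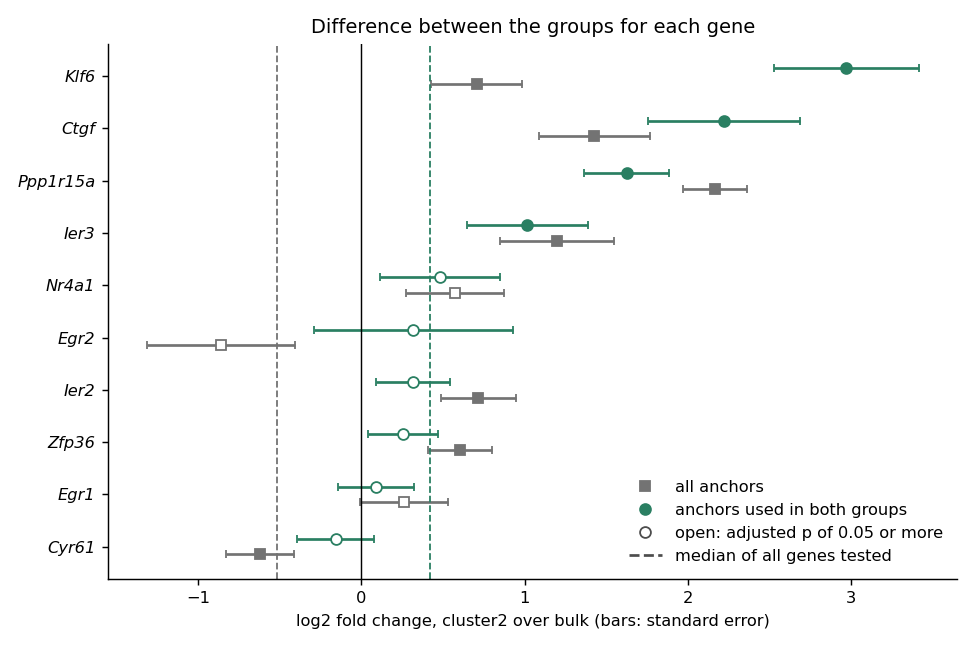
Log2 difference, cluster2 over bulk, with its standard error for each gene over all anchors and over shared anchors (edgeR, TMM), beside the median of all genes tested, −0.52 and 0.42. Klf6 differs most between both ways of counting (0.71 and 2.97); with library size alone as the scale, Cyr61 (1.16) and Egr2 (0.88) turn positive over all anchors.

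Among the transcription factors, Klf6 (chr13, TSS 5860735, plus strand), a zinc-finger factor of injury and growth responses, changed most with the anchors counted. Over all anchors the cluster2 libraries held 237, 259, 260, 260 and 312 CPM and the bulk libraries 54.1 to 410 (median 145), so the groups overlapped, and the log2 difference was 0.71 (SE 0.28, adjusted p = 0.0241). On shared anchors the cluster2 libraries held 564, 619, 647, 657 and 750 CPM, every one above the highest bulk library at 246, and 4 bulk libraries were at 0. The log2 difference there was 2.97 (SE 0.44, adjusted p = 4.04e-16), on 15 bulk and 260 cluster2 read pairs. Of the 182 bulk read pairs over all anchors, these 15 remained, so Klf6 reached the minimum of 20 through cluster2 alone. The shared-anchor difference is therefore a description. The all-anchor call did not hold without cluster2 replicate 5 (adjusted p = 0.0737), nor with only loops spanning at least 20 kb (log2 difference 0.03, adjusted p = 0.944).

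Egr1, the zinc-finger factor that reads out growth factor signals, held 249 bulk and 263 cluster2 read pairs from 1 anchor at its TSS (chr18, base 35020861, plus strand), whose window it shares with Gm17507. Its cluster2 libraries lay close together, at 244, 244, 255, 274 and 313 CPM. The bulk libraries ran from 99.2 to 591 (median 197) and enclosed them. The difference was 0.26 (SE 0.27, adjusted p = 0.403) over all anchors and 0.09 (SE 0.23, adjusted p = 0.785) on shared anchors, and the latter ranged from −0.02 to 0.41 when 1 library was left out, with its sign turned without bulk replicate 3 or bulk replicate 10.

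Egr2 (chr10, TSS 66998223 to 67001431, plus strand), a related factor known from hindbrain patterning and myelination, had the fewest read pairs of the 10, 52 in bulk and 24 in cluster2. Its cluster2 libraries held 4.1, 15.8, 29.2, 39.1 and 39.3 CPM and the bulk libraries 17.8 to 93.2 (median 34.7). The difference was −0.86 (SE 0.45, adjusted p = 0.0844) over all anchors (0.88 with library size alone), and 0.32 (SE 0.61, adjusted p = 0.687) on shared anchors, where 6 bulk libraries were at 0. Over all anchors it was called lower with only loops spanning at least 20 kb (−2.56, adjusted p = 2.62e-04), and with a window of 10 kb (−0.87, adjusted p = 0.0468).

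Nr4a1 (chr15, TSS 101097277, plus strand), an orphan nuclear receptor, held 47.2, 78.8, 94.9, 102.6 and 102.7 CPM in cluster2 and 20.5 to 102 in bulk (median 55.6). It was not called over all anchors (0.57, SE 0.30, adjusted p = 0.0874) or on shared anchors (0.48, SE 0.37, adjusted p = 0.284). The former is near the threshold: it was called higher without cluster2 replicate 3 (0.70, adjusted p = 0.0461), with DESeq2 (0.69, adjusted p = 0.0407), with windows of 2.5 kb (0.74, adjusted p = 0.0337) and 10 kb (0.75, adjusted p = 0.0216), and with library size alone (2.34).

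Ppp1r15a (GADD34), which recruits a phosphatase that ends the translation block of the stress response, had the largest difference of the 10 over all anchors. Its cluster2 libraries held 387, 448, 465, 473 and 474 CPM and its bulk libraries 49.6 to 136 (median 101). The groups did not overlap, which over all anchors held for this gene alone among the 10 and, in the same direction, for 7.22% of all genes. The difference was 2.16 (SE 0.20, adjusted p = 7.93e-12), and 1.62 (SE 0.26, adjusted p = 8.00e-10) on shared anchors, where cluster2 held 920 to 1174 CPM and bulk 190 to 493. The groups of Ppp1r15a and of Klf6 were apart on shared anchors, as were those of 5.09% of all genes. The Ppp1r15a anchors (chr7, TSS 52779139 to 52781638, minus strand) lie also within 5 kb of a TSS of Plekha4 or Tulp2, so its read pairs cannot be told from theirs.

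Zfp36 (tristetraprolin; chr7, TSS 29164274, minus strand), which binds AU-rich elements and speeds the decay of inflammatory transcripts, held most read pairs of the 10 over both groups together, 340 in bulk and 444 in cluster2. Its cluster2 libraries held 363, 425, 464, 468 and 493 CPM against 146 to 462 in bulk (median 287). It was higher over all anchors (0.60, SE 0.19, adjusted p = 0.00621) and not called on shared anchors (0.25, SE 0.22, adjusted p = 0.361). Of its 3 anchors, 1 is also near the TSS of Plekhg2.

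Ier2, a small nuclear protein gene (chr8, TSS 87186751, minus strand), held 288, 299, 315, 329 and 361 CPM in cluster2 against 55.8 to 316 in bulk (median 194), a difference of 0.72 (SE 0.23, adjusted p = 0.00583) that was 0.32 (SE 0.23, adjusted p = 0.271) on shared anchors. Ier3, linked to survival under stress (chr17, TSS 35958629, plus strand), held 70.96, 98.6, 117.2, 117.9 and 157 CPM in cluster2 against 0 to 142 in bulk (median 40.8). Ier3 was higher both over all anchors (1.20, SE 0.35, adjusted p = 0.00218) and on shared anchors (1.02, SE 0.37, adjusted p = 0.0133), where the call was lost without cluster2 replicate 1 (adjusted p = 0.0854), with the replicate number as a block (0.88, adjusted p = 0.150) and in the same 10 libraries without the block (0.92, adjusted p = 0.0657). The promoter anchor of Ier3 also lies near a TSS of Flot1.

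The secreted matricellular genes moved in opposite directions over all anchors. Ctgf (chr10, TSS 24315248 to 24315586, plus strand) held 70.8, 118.3, 142, 147 and 226 CPM in cluster2 against 0 to 112 in bulk (median 45.5). It was higher over all anchors (1.43, SE 0.34, adjusted p = 2.75e-04) and on shared anchors (2.22, SE 0.47, adjusted p = 1.61e-07), with 14 bulk and 148 cluster2 read pairs in the latter. Cyr61 (chr3, TSS 145312949, minus strand) held 158, 200.3, 200.7, 251 and 267 CPM in cluster2 against 143 to 507 in bulk (median 313). Its difference was −0.62 (SE 0.21, adjusted p = 0.00997) over all anchors, which turns to 1.16 with library size alone, and −0.16 (SE 0.24, adjusted p = 0.625) on shared anchors.

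The next comparison asks which partner anchors account for these levels. Of the 1004 loops, 39 reached 20 read pairs in total, seen in 5 or more libraries, and were tested among 5369 loops of the genome. Of these 20 were higher and 3 lower in cluster2, against 38.1% and 22.4% of all loops tested. All 20 higher loops reached the minimum through cluster2 alone and the 3 lower loops through bulk alone. These counts, and the differences and adjusted p given below for the called loops, are therefore a description. The median difference was 1.11 over the 39 loops and 0.78 over all loops, the latter 2.99 with library size alone. All 20 higher loops had both anchors in the shared set, as nearly all cluster2 read pairs do. Each of the 3 lower loops had an end on an anchor that only bulk loops used and 0 read pairs in cluster2. Such an anchor may not have been called in cluster2, so no fold is given for them.

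The loops of Klf6 ran to 3 places upstream with no protein-coding gene at the anchor. The largest loop joined the promoter to an anchor 19.6 kb upstream (chr13:5836037-5846220), with 31, 32, 15, 13 and 34 read pairs in the cluster2 libraries 1 to 5 and 8 read pairs over the 12 bulk libraries. That is 96.8 ± 22.1 CPM (SD, n = 5) against 8.07 ± 10.6 (n = 12), a log2 difference of 3.43 (SE 0.61, adjusted p = 3.73e-12). The anchor 57.2 kb upstream (chr13:5801418-5805574) had 25, 15, 10, 13 and 28 read pairs in cluster2 and 3 in bulk, and differed by 4.15 (SE 0.94, adjusted p = 5.95e-12). In both loops every cluster2 library lay above every bulk library. Another anchor 28.6 kb upstream (chr13:5830645-5833643) had 27 read pairs against 1, a pooled ratio of 20.6 with an exact 95% counting interval of 3.40 to 844. The lower loop ran 10.1 kb downstream into the downstream part of Klf6 (chr13:5868144-5873549) and had 21 bulk read pairs in 10 libraries.

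Ctgf had a similar pair of gene-free partners. The anchor 149 kb upstream (chr10:24163902-24167954) had 20, 23, 2, 9 and 32 read pairs in cluster2 and 3 in 2 bulk libraries. Its levels were 62.5 ± 36.7 CPM (SD, n = 5) against 3.50 ± 9.86 (n = 12), a difference of 4.04 (SE 0.94, adjusted p = 3.29e-11). The highest bulk library, at 33.9 CPM, lay above the lowest cluster2 library, at 11.8, so the groups overlapped. The anchor 34.0 kb downstream (chr10:24347340-24351572) had 22 read pairs in cluster2 and 0 in bulk, at least 5.60-fold higher against a floor of 3 read pairs over the bulk group. Like all the other higher loops, it passed the minimum through cluster2 alone and is given as a description.

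For Cyr61 the gene-free partner 31.6 kb downstream was higher (32 read pairs against 7, difference 1.68, SE 0.67, adjusted p = 0.00643), although not without cluster2 replicate 5. The partner 54.1 kb upstream had 29 against 20 read pairs and a difference of 0.14 (SE 0.49, adjusted p = 0.814). The partner in an intron of Ddah1, 149 kb upstream, had 38 against 13 (1.11, SE 0.53, adjusted p = 0.0381), a call lost in 14 of the 17 fits that leave 1 library out. The lower loop ran 16.2 kb downstream to a bulk-only anchor with 21 read pairs.

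All 6 tested loops of Ppp1r15a were higher, and 5 of them ended at promoters of other genes. They joined it to Bax and Ftl1 at 66.2 kb (31 read pairs against 6, difference 1.83, adjusted p = 0.00421) and to Bax at 59.6 kb (35 against 5, difference 2.23, adjusted p = 4.92e-04). Bax drives mitochondrial cell death and Ftl1 is the ferritin light chain. The loops to Dhdh, Nucb1 and Tulp2 at 38.0 kb (30 against 2) and to Nucb1 and Tulp2 at 16.0 kb (23 against 2) differed by 3.01 and 2.66. The loop to Bcat2, a branched-chain amino acid transaminase, had 24 against 5 (1.68, adjusted p = 0.0153), and a loop 12.4 kb into Plekha4 had 20 against 4 (1.74, adjusted p = 0.0151). The Bax and Ftl1 call was lost without cluster2 replicate 5 and the Bcat2 call without bulk replicate 4.

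All 4 higher loops of Zfp36 ended at promoters of other genes. They all start at its anchor chr7:29156512-29162381, which also lies near the TSS of Plekhg2 and does not hold the promoter window printed above, so they cannot be told from loops of Plekhg2. The loop to Supt5h, a transcription elongation factor, had 8, 9, 4, 2 and 12 read pairs in cluster2 and 2 in bulk (3.23, SE 1.13, adjusted p = 1.57e-05). Loops to Rps16, a ribosomal protein gene (35 against 9, 1.50), to the shared anchor of Med29 and Paf1 (35 against 11, 1.24) and to Gmfg (25 against 6, 1.54) were also higher, with adjusted p of 0.00955, 0.0266 and 0.0223. The loops to Timm50 (15 against 8) and from the Zfp36 anchor that holds the promoter to Med29 and Paf1 (16 against 7) were not called. The Rps16 and Gmfg calls were lost without bulk replicate 4, the Gmfg call also without cluster2 replicate 4, and the Med29 and Paf1 call in 6 of 17 such fits. The lower loop, with 22 bulk read pairs, joined Zfp36 to a bulk-only anchor 2.6 kb upstream of its TSS.

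Of the 5 tested loops of Egr1, those to Kdm3b, a histone demethylase gene 80.7 kb upstream (23 read pairs against 1, difference 3.31, SE 1.50, adjusted p = 8.14e-05), and to Etf1, a translation release factor gene 70.0 kb downstream (49 against 18, 1.04, SE 0.47, adjusted p = 0.0316), were higher. The Etf1 call was lost in 10 of 17 fits that leave 1 library out. The gene-free anchor 27.5 kb downstream, the largest bulk partner, had 46 against 29 and a difference of 0.27 (SE 0.42, adjusted p = 0.577), and the loops to Reep2 and Hspa9 differed by 0.05 and 0.48. For Ier2 the loop to Nacc1 and Trmt1, 24.8 kb upstream, was higher (47 against 12, 1.53, SE 0.54, adjusted p = 0.00331), and the loops to Cacna1a (13 against 15, −0.55, adjusted p = 0.408) and to Lyl1, Nfix and Trmt1 (24 against 9, 0.95, adjusted p = 0.137) were not called. None of the tested loops of Egr2, Ier3 and Nr4a1 was called: Egr2 to Ado 18 against 6 (1.09, adjusted p = 0.116), Ier3 to Flot1, Mdc1 and Tubb5 26 against 9 (1.05, adjusted p = 0.0931), and the 2 loops of Nr4a1 differed by −0.06 and 0.69.

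**Figure D3:**
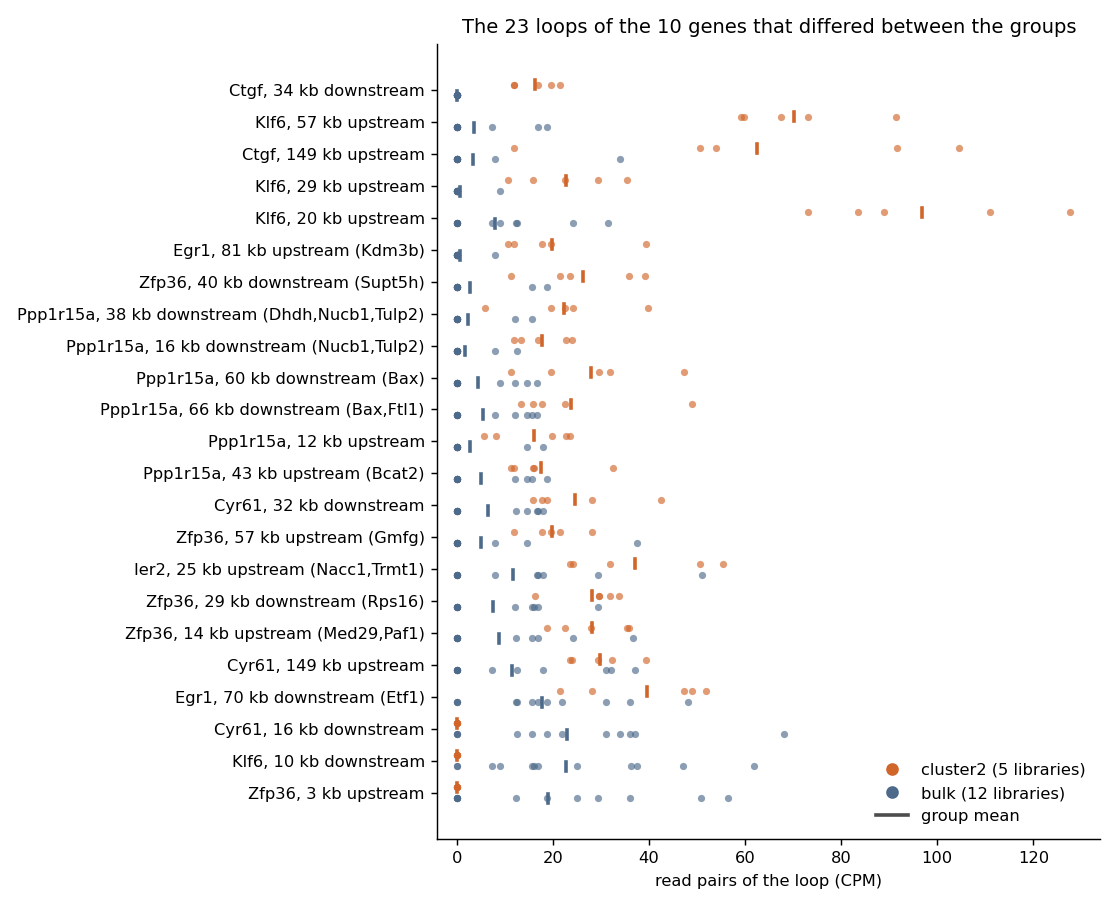
Levels (TMM-scaled CPM) in every library of the 23 loops that differed between the groups, ordered by their log2 difference; points are libraries and bars group means over 5 cluster2 and 12 bulk libraries. The Klf6 partners at 19.6 and 57.2 kb and the Ctgf partner at 149 kb had the highest cluster2 means of the 23, at 96.8, 70.2 and 62.5 CPM, and the 3 lower loops are at 0 in all 5 cluster2 libraries.

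Read pairs were spread over partners unevenly. In bulk the largest partner of a gene held 5.47% (Cyr61) to 22.8% (Ier3) of its read pairs. In cluster2 the share was 75.0% for Egr2 (Ado, exact binomial 95% interval 53.3 to 90.2), 58.1% for Ctgf (49.7 to 66.2) and 48.1% for Klf6 (41.9 to 54.3), and 9.45% for Ppp1r15a at the other end. Over 8296 genes with at least 20 read pairs in each group the median share was 10.95% in bulk and 21.7% in cluster2. These intervals cover counting error only, and PCR copies are not independent molecules.

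Klf6 met 92 partner anchors in bulk and 5 in cluster2, a ratio of 18.4 where the median gene had 2 and the 95th percentile was 7.60. Within 500 kb of its TSS bulk loops used 118 anchors and cluster2 loops 5, and the partner numbers are bounded by those anchors: of the 92, 4 were shared. Ppp1r15a had 55 partners in bulk and 73 in cluster2, but on 114 and 434 read pairs, and at 114 read pairs in both its cluster2 partners are expected to number 40.4. Ier3 had 36 and 37, and 36 and 24.9 at 57 read pairs in both. The other genes, also on unequal read pairs, had 99 and 45 (Egr1), 34 and 5 (Egr2), 80 and 53 (Ier2), 131 and 81 (Zfp36), 123 and 28 (Cyr61), 42 and 15 (Ctgf) and 34 and 22 (Nr4a1).

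**Figure D4:**
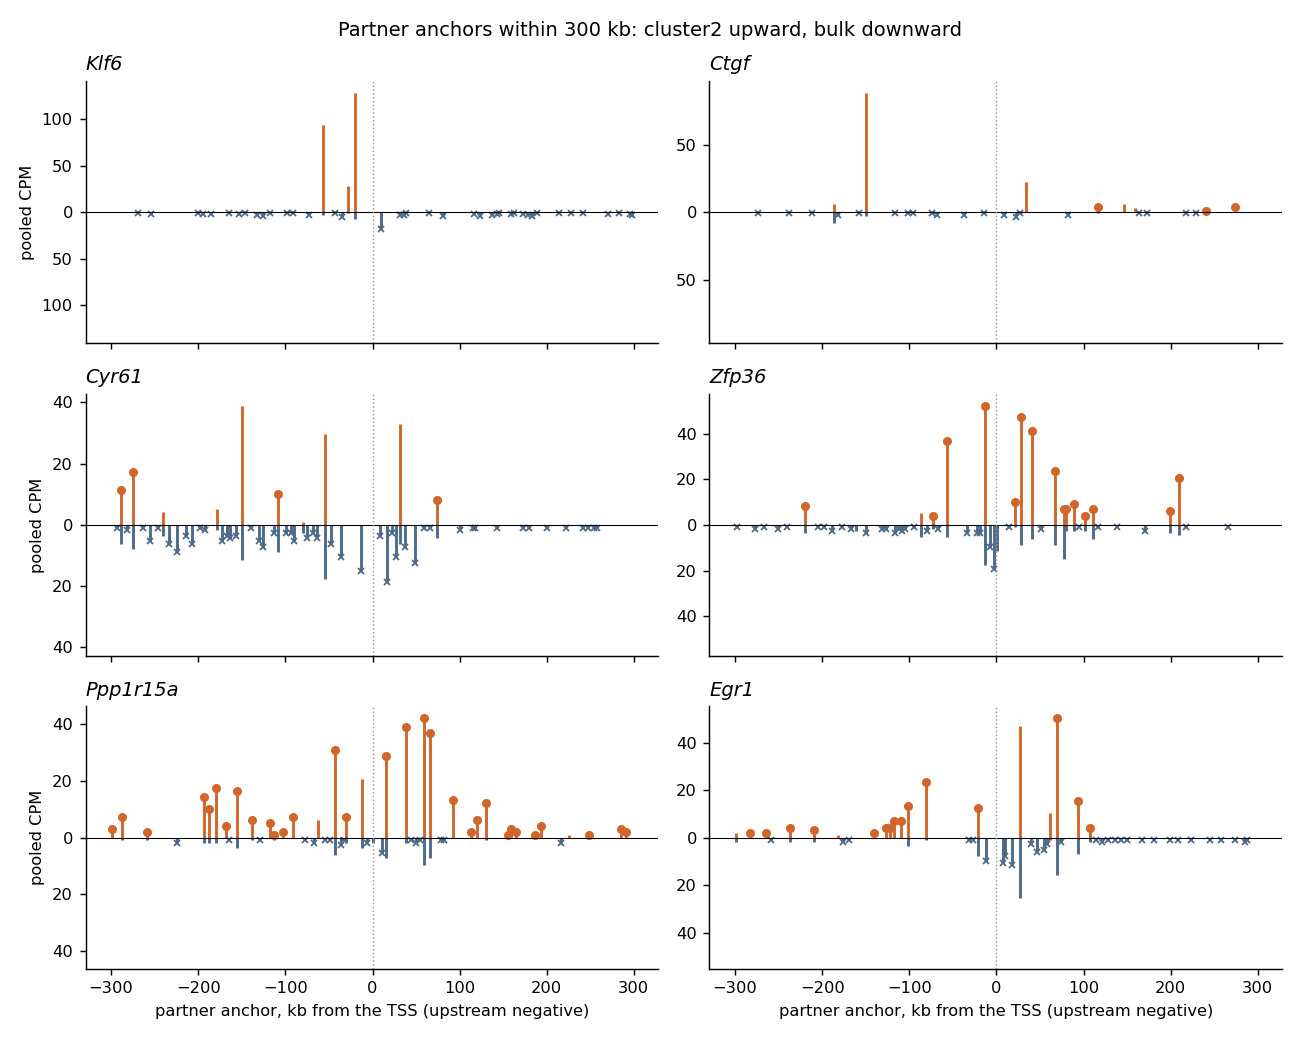
Pooled read pairs (CPM) of 6 of the genes with each partner anchor within 300 kb, against its distance from the TSS in kb, with cluster2 drawn upward and bulk downward; circles mark promoters of other genes with cluster2 read pairs and crosses anchors used by bulk loops only. Klf6 in cluster2 is carried by the partners 57.2, 28.6 and 19.6 kb upstream, Ctgf by the one 149 kb upstream, and Ppp1r15a by many promoters on both sides.

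The partners were next divided into promoters, within 5 kb of a TSS of another protein-coding gene, and distal anchors. A loop between anchors of a gene's own window was counted as promoter where either end lay near another gene's TSS, which for Zfp36 gives 258 bulk read pairs in this class, where 223 had their partner at another gene's promoter. Promoter contacts were higher in cluster2 for 8 of the 9 genes tested (Klf6 had too few to test) and lower for none, with differences from 1.08 (Zfp36) to 2.42 (Ppp1r15a) and Cyr61 not called (0.46, adjusted p = 0.218). Among all genes, 50.4% were higher and 11.7% lower in this class, with a median of 0.96 against 1.41 for the 9. Distal contacts were higher for Ctgf (1.55), Ppp1r15a (1.16) and Klf6 (0.89) and lower for Egr2 (−3.09), Zfp36 (−1.55), Ier2 (−1.15), Cyr61 (−0.83) and Egr1 (−0.77), Nr4a1 was not called (0.19, adjusted p = 0.657) and Ier3 had too few to test. Of all genes 3% were higher and 71.1% lower in the distal class, with a median of −2.39. The classes were counted over all anchors, and a loop to an anchor not called in cluster2 could not be counted there. Of the 34 bulk partners of Egr2, 3 were on shared anchors. Lower distal classes are therefore a description. So are the higher promoter classes of Egr2 (10 bulk and 21 cluster2 read pairs) and Nr4a1 (16 and 44) and the higher distal class of Ppp1r15a (16 and 29). These reached the minimum of 20 read pairs through cluster2 alone. The promoter class of Ctgf rested on 7 and 19. With library size alone as the scale, 6 of the 9 were higher and 1 lower in the distal class. The share of a gene's read pairs on promoters of other genes ran in cluster2 from 1.54% (Klf6) and 12.8% (Ctgf) through 36.0% (Cyr61) and 50% (Nr4a1) to 97.4% (Ier3). In bulk it ran from 2.75% (Klf6) and 11.7% (Ctgf) to 86.0% (Ppp1r15a). Klf6 and Ctgf had the lowest shares in both groups.

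**Figure D5:**
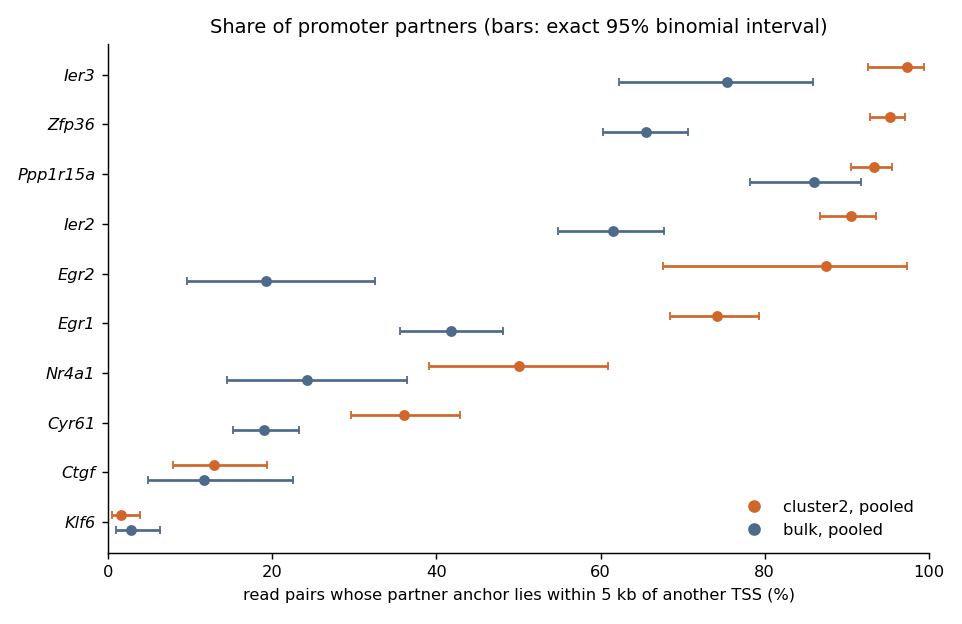
Share of each gene's read pairs (%) that join it to an anchor within 5 kb of another protein-coding gene's TSS, pooled bulk and cluster2 libraries, with exact 95% binomial intervals. Egr1 goes from 41.8 to 74.1% and Zfp36 from 65.6 to 95.3%, while Klf6 (2.75 and 1.54%) and Ctgf (11.7 and 12.8%) stay low in both groups.

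Spans, the distance between the anchors of a loop, were then divided at 100 kb. These classes were counted over all anchors, and a loop to an anchor not called in cluster2 could not be counted there. Of the 92 bulk partners of Klf6, 4 were on shared anchors. Lower span classes are therefore a description. Klf6 split most clearly: its near loops were higher in cluster2 (57 read pairs in bulk, 243 in cluster2, log2 difference 2.37, adjusted p = 1.43e-10) and its far loops lower (125 and 17, −2.47, adjusted p = 2.68e-06). Far loops held 68.7% of its bulk read pairs and 6.54% (exact 95% interval 3.85 to 10.3) of those in cluster2, and its median span was 183 kb in bulk, 28.5 kb in cluster2 and 19.5 kb in bulk on shared anchors. Ppp1r15a was higher in both classes, by 2.09 near and 2.47 far, as was Ier3, by 1.36 and 1.19. Far loops were higher for Ctgf (1.79) and Ier2 (1.24) and lower for Egr2 (−2.15), near loops were higher for Zfp36 (1.01) and lower for Cyr61 (−0.88). In all, 4 of 10 were higher and 2 lower in the far class, against 17.6% and 34.8% of all genes, and 4 higher and 1 lower in the near class, against 27.7% and 28.9%. With library size alone 10 of 10 near classes and 8 of 10 far classes were higher and none was lower.

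The pathway around these genes was read from 3 further lists, whose counts stand beside 20.6% higher and 42.8% lower among all genes over all anchors (median −0.52) and 25.7% and 10% on shared anchors (median 0.42). Of 37 other immediate early genes, 35 were tested over all anchors, with 11 higher, 15 lower and a median of −0.29. On shared anchors 7 of 33 were higher and 6 lower (median 0.32). The AP-1 subunit Fosb was among the higher (72 bulk and 556 cluster2 read pairs, 3.14, SE 0.25, adjusted p = 1.99e-13), as was the small Maf factor Maff (1.90, adjusted p = 7.79e-09). Ier5 was lower (−2.76, adjusted p = 1.22e-08), and the kinase gene Sgk1 had 68 read pairs in bulk and 0 in cluster2. Sgk1 was not tested on shared anchors, and no fold is given for it, since its anchors may not have been called in cluster2.

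Of 21 regulators upstream of immediate early genes, 4 of 20 tested were higher and 6 lower over all anchors (median −0.06), against 20.6% and 42.8% of all genes. On shared anchors 6 of 16 were higher and 1 lower (median 0.70), against 25.7% and 10%. Crtc2, a coactivator of CREB, was higher in both countings (2.22, adjusted p = 1.47e-10, and 1.49, adjusted p = 8.01e-08). Elk1, a partner of serum response factor, was higher over all anchors (7 read pairs in bulk and 32 in cluster2, 2.20, adjusted p = 0.00120). Tead1 was lower over all anchors (−2.17, adjusted p = 1.31e-06) and differed by 0.19 on shared anchors (adjusted p = 0.715). Mkl1, the actin-regulated coactivator of serum response factor, had 105 read pairs in bulk and 0 in cluster2. Mkl1 was not tested on shared anchors, and no fold is given for it, since its anchors may not have been called in cluster2.

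Of 20 genes of a YAP target signature, to which Cyr61 and Ctgf are commonly assigned, 15 were tested over all anchors, with 3 higher, 9 lower and a median of −1.91, against 20.6% and 42.8% of all genes. On shared anchors 12 were tested, with 5 higher, 2 lower and a median of 0.32, against 25.7% and 10%. F3, tissue factor, was higher in both countings (1.69, adjusted p = 2.49e-07, and 2.20, adjusted p = 4.41e-11), as was Myof (26 and 66 read pairs over all anchors, 1.50, adjusted p = 0.00115). Nuak2 was lower in both (−4.27, adjusted p = 1.11e-15, and −3.77, adjusted p = 2.36e-37). Ptpn14 was lower over all anchors (−5.49, adjusted p = 1.79e-16) and not called on shared anchors (−1.09, adjusted p = 0.0864).

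Over the 17 libraries the genes most like Zfp36 in log2(CPM + 1), among genes on another chromosome or over 2 Mb away, were Cstb (Pearson r = 0.92), Il11ra1 (0.88) and Klf16 (0.87). With each group's mean removed the r values were 0.87, 0.84 and 0.77. They are the highest of 14115 genes and stand as a description, since the libraries share their group and depth.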

How the data were processed

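H3K27ac HiChIP was measured in 12 bulk and 5 cluster2 libraries, which the labels' titles separate. Per the labels and the study's methods, the authors ran HiC-Pro and hichipper on mm9, and deposited for each library a list of loops with a count of read pairs per pair of anchors, not normalized, with a lowest count of 1. The labels name no versions. Counts can fall only on the anchors the authors called.

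Overlapping anchors were joined over the 17 libraries, and 700 read pairs that then fell within 1 anchor were dropped. Read pairs were summed per gene (protein-coding genes of GENCODE vM1, window of 5 kb around each TSS), per loop, and per gene and class of span (limit 100 kb) or partner. Rows that reached 20 read pairs in total, seen in 5 or more libraries, were tested between the groups with edgeR 4.0.16 (quasi-likelihood, TMM, no covariate) in R 4.3.3, with Benjamini-Hochberg adjustment over all rows of the table, and called at an adjusted p under 0.05. CPM uses the library's total of loop read pairs, or on shared anchors its total in loops on those anchors, times its TMM factor. The procedure was tested on simulated data with 200 changed genes. Shares have exact binomial 95% intervals and pooled ratios exact conditional ones. Python 3.11.15 with pandas 2.3.3, numpy 2.4.6 and scipy 1.17.1 was used for the rest, and matplotlib 3.10.9 for the figures.

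Libraries of a group differed from each other in every pair (chi-square over joined anchors, largest p = 7.24e-08), so none was merged. Each read pair was counted at both of its anchors, so this p is not an exact measure of sampling noise. The genes named are the 10 members, their largest partners and tested loops, the 2 genes with the smallest p in each direction of each of 3 lists, and the 3 genes most like Zfp36. The marker genes given were added after their values were seen. They are the 2 with the smallest p of the endoderm and the neural list, the sorting markers, and the endoderm markers that were lower or not called. The members and the lists were chosen with earlier results of these data known. Alternatives were library size alone, TMMwsp, DESeq2 1.42.0, other filters, windows and span limits, thinned libraries, 3 regions left out, libraries with many loops, the replicate number as a block, and each library left out in turn. The values of 1 tested loop of Ier2 are not reported here.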

Additional observations from a re-analysis of the deposited data

Results flagged for a closer look

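Among 56 sets of 5 cluster2 libraries (a gene or tested loop each), 6 had 1 library far from the other 4 by Dixon's test, which chance does for about 1 in 20 sets. Ppp1r15a on shared anchors had its lowest level, 920 CPM, in cluster2 replicate 1, where the other libraries held 1117 to 1174. The loop of Ier2 to Cacna1a was at 0 in replicate 4 and at 10.8 to 13.1 CPM in the others, and its loop to Lyl1 and Nfix was highest in replicate 1, at 24.3 CPM against 15.9 to 17.8. The loop of Zfp36 to Rps16 was lowest in replicate 5, at 16.3 CPM against 29.6 to 33.7. In the same replicate 5 the loops of Ppp1r15a to Bax and Ftl1 (49.0 CPM against 13.5 to 22.5) and to Bcat2 (32.6 CPM against 11.2 to 16.2) were highest.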

How the results depend on the processing

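With library size as the only scale, 0 genes were lower (main 1), 36 loops higher (main 20), 10 near and 8 far classes higher, 0 near and 0 far lower, and 6 distal classes higher with 1 lower, while Cyr61 (1.16) and Egr2 (0.88) turned positive over all anchors. With only libraries of at least 500 loops of over 5 reads, 1 bulk library was left and Ier2 was at −0.12. With at least 10 read pairs in at least 3 libraries 45 of 85 loops were higher and 13 lower, with at least 50 read pairs 4 of 7 and 0, and with spans of at least 20 kb 0 of 28 were lower. With a limit of 50 kb, 1 far class was lower. Egr1 on shared anchors was at −0.094 among genes with at least 50 read pairs.

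The replicate numbers do not pair the libraries (correlations of deviations −0.014 to 0.010, 0 of 5 best with their own number). With the replicate number as a block over numbers 1 to 5, 8 of 31 loops were higher and 0 lower and Egr1 on shared anchors was at −0.19. The same 10 libraries without the block, an alternative chosen after seeing the data, gave 10 and 0 loops and −0.21.

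When 1 library was left out, 5 to 7 genes were higher and 1 to 1 lower over all anchors, 3 to 4 and 0 to 0 on shared anchors, and 10 to 20 loops were higher (10 without cluster2 replicate 5) and 1 to 3 lower (1 without bulk replicate 2, 3, 4, 6 or 8, which takes loops of 21 or 22 read pairs under the minimum of 20). Promoter classes were higher for 7 to 8 and lower for 0 to 0, distal 2 to 3 and 4 to 5, near 4 to 5 and 1 to 1, far 3 to 4 and 2 to 2. Cyr61 on shared anchors ranged from −0.27 to 0.0055 (positive without bulk replicate 8) and Egr1 from −0.019 to 0.41.

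On shared anchors the bulk median span was 12.1 kb for Egr2 and 19.5 kb for Klf6, and bulk partners numbered 35 (Egr1), 3 (Egr2), 36 (Ier2), 61 (Zfp36), 28 (Cyr61), 4 (Ctgf), 4 (Klf6), 12 (Nr4a1) and 30 (Ppp1r15a). Klf6 over all anchors was also not called with the block (0.30), without 3 regions (0.62) or at 50 read pairs (0.63), and Cyr61 not with a window of 10 kb (−0.45) or spans of at least 20 kb (−0.47). Except where a value's construction is given, the cause was not tested. Loops of few bulk read pairs limit the precision.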
